A study of Mus musculus with 30 samples.

Results

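The nuclear genes for the subunits of respiratory chain complex I were followed in salivary glands of mice of the NOD.H-2h4 strain. They were chosen by symbol: every gene on the array whose symbol starts with Ndufa, Ndufb, Ndufc, Ndufs or Ndufv was taken, apart from the assembly factors named Ndufaf. The symbol rule found 36 genes with a probe set of their own, out of 18194 genes with such a probe set. Each gene was read from 1 probe set, the one with the highest mean over the arrays. Of the 36 genes, 35 passed the filter on low values, as did 12999 genes in all. The member that did not pass was Ndufb4, whose own probe set averaged 4.83 on the log2 scale and lay above the array median on 0 of 30 arrays.

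The mice were female NOD.H-2h4, a strain that develops autoimmune inflammation of the salivary gland. When 4 weeks old, every animal received 1 intraperitoneal injection at 20 mg/kg, either of an antibody against CD40L, a T cell protein that activates B cells through CD40, or of a human IgG1 isotype control. Whole glands were collected at 8, 16 or 24 weeks of age from control and anti-CD40L animals, and each of the 6 groups had 5 Affymetrix arrays, called biological replicates in the labels. No untreated animals and no other strain were among the samples, so a change with age is a change in injected animals of an autoimmune strain. Because whole gland was measured, fewer cells of a type and less RNA per cell cannot be told apart.

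Complex I is the entry point of electrons into the respiratory chain of mitochondria: it oxidises NADH, passes the electrons to ubiquinone and pumps protons across the inner membrane. A matrix arm carries the flavin and the iron-sulfur clusters, and a membrane arm carries the proton pumps. The core subunits do the chemistry, and the accessory subunits surround and stabilise them. Salivary ducts that move ions are rich in mitochondria, and secretion by acinar cells also draws on ATP. Some core subunits are encoded in the mitochondrial genome and do not belong to the symbols chosen here.

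By role, the 35 genes tested were 6 core catalytic subunits, 8 accessory subunits of the matrix arm, 18 accessory subunits of the membrane arm, the acyl carrier Ndufab1 and 2 related genes. The related genes are Ndufa4, now assigned to complex IV, and its paralog Ndufa4l2. A further 8 symbols that fit the rule, Ndufa11 and Ndufs6 among them, occur only on probe sets that name several genes. The members varied little among animals of a group: their within-group SD had a median of 0.111 on the log2 scale, against 0.222 over all genes tested. Members and all genes were not matched for level, so the lower SD cannot be given to complex I as such.

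Between week 8 and week 16 most complex I transcripts fell in control-treated glands. Of 35 genes 22 passed the threshold as lower and 1, Ndufa10, as higher (limma, adjusted p under 0.05 over all genes tested). Lower calls made up 62.9% of the members and 18.1% of all genes tested, and higher calls 2.86% of the members and 28.4% of all genes. The median log2 difference (week 16 minus week 8) was -0.23 over the members and 0.06 over all genes. Of the member differences 32 of 35 were below 0, against 45% of those of all genes. The largest falls were in Ndufb2, Ndufs4, Ndufa2 and Ndufa5, with changes of -40.6%, -37.3%, -34.5% and -34.1%.

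The median of all genes in this comparison depends on the scaling. With quantile normalization it went from 0.064 to -0.058, and the share of calls that were higher went from 61% to 42%. The members then had a median of -0.28, with 23 called lower and 1 higher. Relative to the median of all genes, the members' median was -0.292 as deposited and -0.226 after quantile normalization.

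Signs of RNA quality moved with the complex I genes. For the array's control probe sets of Gapdh and Actb, the level at the 3' end minus that at the 5' end is larger where RNA is more degraded. Averaged over both transcripts, this 3' minus 5' difference was 0.57 ± 0.198, 0.29 ± 0.0661 and 0.41 ± 0.121 in controls at weeks 8, 16 and 24 (log2 scale, SD, n = 5). After anti-CD40L it was 0.37 ± 0.0984, 0.26 ± 0.0481 and 0.2 ± 0.0359. By two-sided exact permutation tests adjusted over 14 tests, the difference in controls between week 8 and week 16 had p = 0.0159 and adjusted p = 0.0556.

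With this quantity as a covariate of the fit, the members called lower in controls between weeks 8 and 16 went from 22 to 4, and the calls among all genes from 6047 to 620. The 4 were Ndufa2 (-0.47), Ndufa5 (-0.46), Ndufb3 (-0.43) and Ndufs4 (-0.49), and the member median was -0.19. Leaving out the 5 arrays with a 3' minus 5' difference above 0.5, an alternative added after the data were seen, gave 16 lower calls and a median of -0.22. Of these 5 arrays, 3 were week 8 controls, 1 was a week 24 control and 1 came from the anti-CD40L week 8 group. The part of the smaller number of arrays in the count of calls was not tested. The groups compared differ in the 3' minus 5' difference, so age and RNA quality can be told apart only in part.

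**Figure D1:**
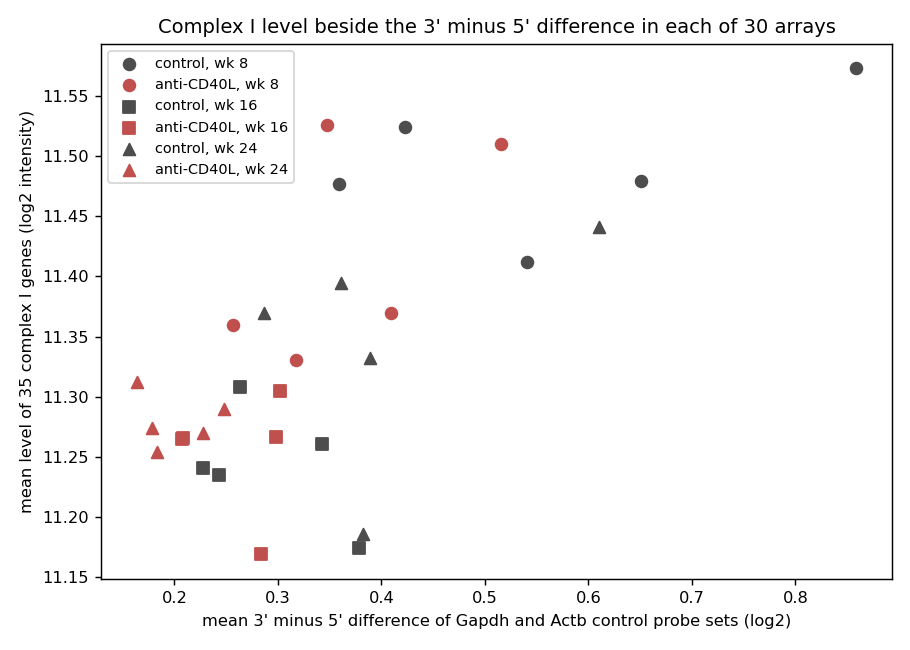
Mean log2 intensity of the 35 complex I genes in each of the 30 arrays against the 3' minus 5' difference averaged over Gapdh and Actb (log2). Colour shows treatment and shape shows week; the highest complex I levels belong to week 8 arrays, whose group means are 11.49 and 11.42 and which hold 4 of the 5 arrays with a 3' minus 5' difference above 0.5.

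The core catalytic subunits had the median nearest to 0 of the roles. Of the 6 tested, 2 were lower, and the median of their differences was -0.06. Ndufv2, an iron-sulfur subunit beside the flavin site, read 12.20, 12.09, 12.32, 12.41 and 12.12 in the 5 control arrays of week 8. It read 11.76, 11.81, 11.95, 11.90 and 11.80 at week 16, so that the groups did not overlap, a difference of -0.39 ± 0.08 (SE, n = 5 per group, adjusted p = 0.00041). For all genes tested, the share whose groups did not overlap was not counted, in this or any other comparison. Overlap is read from the same values as the calls, so it is no separate support for them. Ndufs8, which carries iron-sulfur clusters on the path to ubiquinone, differed by -0.25 ± 0.07 (adjusted p = 0.00767).

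The other core subunits did not pass the threshold between weeks 8 and 16. Ndufs3 averaged 11.55 ± 0.13 at week 8 and 11.48 ± 0.0488 at week 16 (SD, n = 5), and Ndufs7 11.47 ± 0.13 and 11.43 ± 0.0687. In both genes the arrays of the ages overlapped. The other probe set of Ndufs7, at a mean level of 11.23, had a difference of -0.29, so the small difference of this gene rests on the probe set chosen. Ndufs1, the largest iron-sulfur subunit, and Ndufv1, which holds the flavin, had differences above 0, of 0.18 ± 0.10 (adjusted p = 0.128) and 0.20 ± 0.10 (adjusted p = 0.0889). For Ndufv1 the direction rests on the probe set chosen, since its other probe sets, at -0.07 and -0.04, lay below 0.

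Among the accessory subunits of the matrix arm, 5 of 8 were lower and 8 of 8 had differences below 0, with a median of -0.38. Ndufs4, which sits at the junction with the NADH-oxidising module and whose loss in mice causes an encephalopathy resembling Leigh syndrome, read 11.51, 11.37, 11.60, 11.60 and 11.39 in the week 8 controls. At week 16 it read 10.78, 10.83, 10.94, 10.83 and 10.70. Every week 16 value lay below every week 8 value, and the difference was -0.67 ± 0.11 (SE, adjusted p = 0.000105).

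Ndufa2, a small subunit with a thioredoxin-like fold, read 11.56, 11.57, 11.53, 11.81 and 11.65 at week 8 and 10.95, 11.04, 11.10, 11.03 and 10.96 at week 16 in controls, a difference of -0.61 ± 0.10 (adjusted p = 7.03e-05). Ndufa5 read 10.96, 10.88, 11.01, 11.19 and 11.07 at week 8 and 10.33, 10.38, 10.48, 10.49 and 10.42 at week 16, a difference of -0.60 ± 0.10 (adjusted p = 9.77e-05). Ndufa6, which binds the acyl carrier, read 12.12, 12.24, 12.20, 12.45 and 12.24 and then 11.80, 11.85, 11.97, 11.92 and 11.71, a difference of -0.40 ± 0.08 (adjusted p = 0.000378). In none of these 3 genes did the ages overlap. Ndufa7 also fell (-0.36 ± 0.08), while Ndufv3, Ndufa12 and Ndufa9, with -0.09, -0.09 and -0.02, did not pass.

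**Figure D2:**
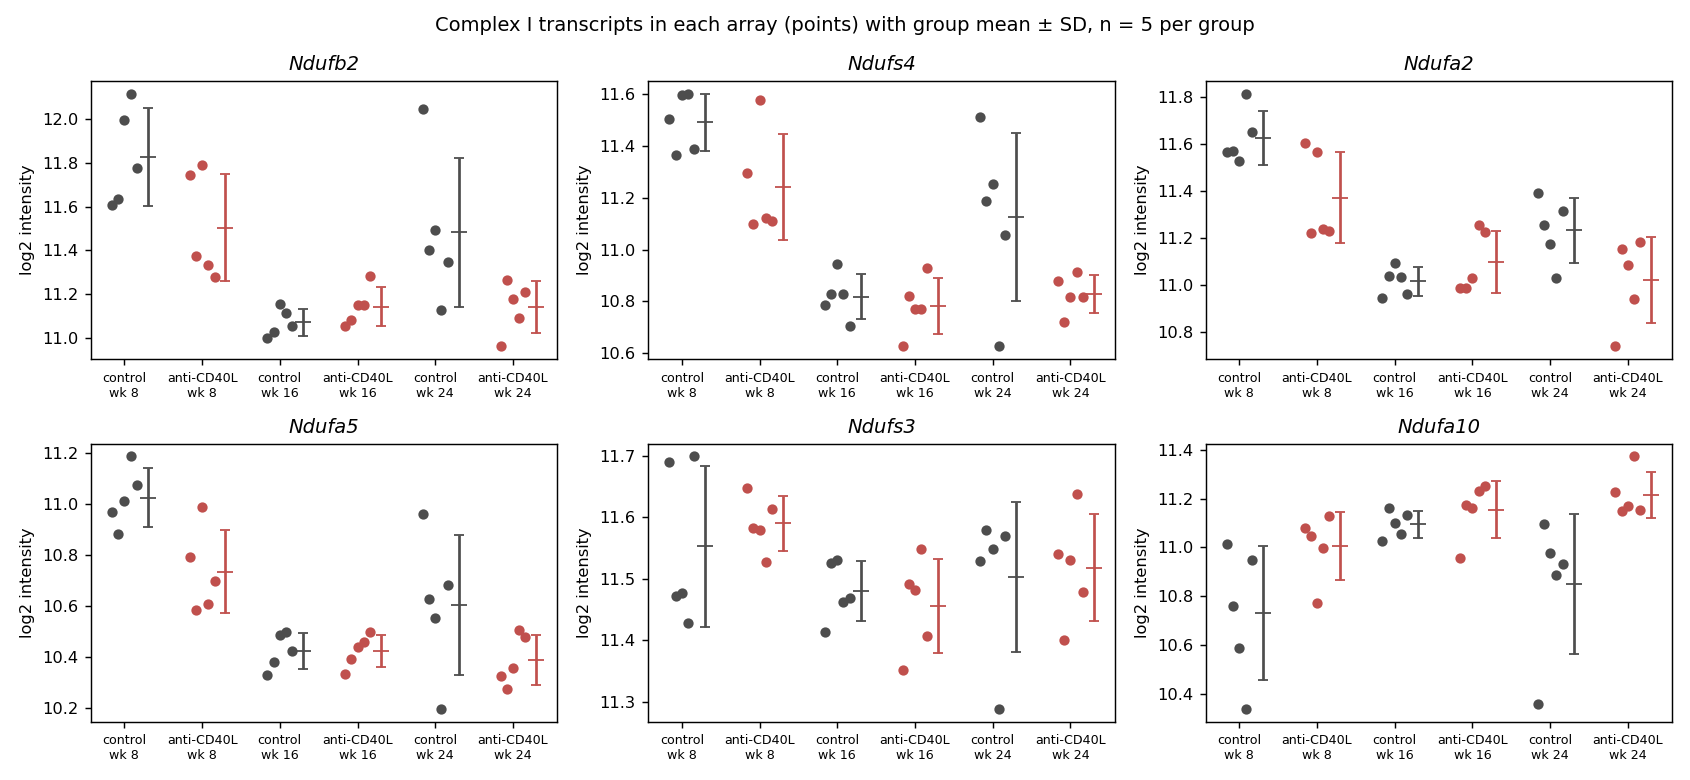
Log2 intensity of 6 complex I genes in each of the 30 arrays, by group, with the group mean and SD beside the points (n = 5 per group). Ndufb2, Ndufs4, Ndufa2 and Ndufa5 were lower in every week 16 control array than in every week 8 control array, the core subunit Ndufs3 overlapped between the ages, and Ndufa10 was higher in every week 16 control array.

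The accessory subunits of the membrane arm held 13 lower calls and 1 higher call among 18 genes, with a median of -0.21. Ndufb2 had the largest fall of all members. It read 11.61, 11.63, 11.99, 12.11 and 11.78 in week 8 controls and 11.00, 11.03, 11.15, 11.12 and 11.06 in week 16 controls, a difference of -0.75 ± 0.13 (SE, adjusted p = 0.00012). The lowest week 8 array was thus above the highest week 16 array, although the week 8 arrays were spread more widely (SD 0.222 against 0.0622).

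Ndufb3 read 11.51, 11.40, 11.46, 11.47 and 11.38 at week 8 and 10.90, 10.96, 11.03, 10.93 and 10.98 at week 16, a difference of -0.49 ± 0.08 (adjusted p = 0.000131). Ndufs5, a small subunit with disulfides on the intermembrane side, read 10.91, 10.80, 11.19, 11.18 and 10.99 and then 10.45, 10.63, 10.67, 10.56 and 10.62, a difference of -0.43 ± 0.11 (adjusted p = 0.00267). Both genes separated the ages in every array.

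The Ndufc genes encode small subunits of the membrane arm. Ndufc1 read 12.03, 12.10, 12.06, 12.27 and 12.29 at week 8 and 11.77, 11.79, 11.86, 11.80 and 11.83 at week 16 in controls (-0.34 ± 0.08, adjusted p = 0.00171). Ndufc2 read 12.72, 12.75, 12.89, 12.94 and 12.71 and then 12.33, 12.31, 12.48, 12.43 and 12.27 (-0.44 ± 0.08, adjusted p = 0.000166). Again no array of one age reached the range of the other.

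Ndufb8 and Ndufb6 also fell, by 0.41 and 0.40 on the log2 scale. The remaining lower calls of the membrane arm were Ndufb7, Ndufb11, Ndufb9, Ndufa13, Ndufb5 and Ndufa1, with differences between -0.37 and -0.14. Ndufb10, Ndufb1, Ndufa8 and Ndufa3 had differences below 0 that did not pass.

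Ndufa10 went the other way. This accessory subunit of the membrane arm, which resembles nucleoside kinases, read 11.02, 10.76, 10.59, 10.34 and 10.95 in week 8 controls and 11.03, 11.16, 11.10, 11.06 and 11.13 in week 16 controls. The ages did not overlap, and the difference was 0.36 ± 0.12 (adjusted p = 0.014), a rise of 28.8%. The call was lost without replicate 4 of the week 8 controls, the array with the lowest value, after which 0 members were called higher. With the 3' minus 5' covariate the difference was -0.04, and the other probe set of the gene, at a mean level of 6.39, had a difference of -0.08.

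Ndufab1, the mitochondrial acyl carrier protein that is built into complex I and also serves fatty acid synthesis, had a difference of -0.12 ± 0.07 (adjusted p = 0.123), and its arrays overlapped. Ndufa4 read 12.60, 12.61, 12.83, 12.98 and 12.57 in week 8 controls and 12.22, 12.14, 12.30, 12.25 and 12.09 in week 16 controls. The ages did not overlap, with a difference of -0.52 ± 0.10 (adjusted p = 0.000334). Ndufa4l2, known from other cells as a gene induced in low oxygen, fell by 0.25 on the log2 scale with overlapping arrays (adjusted p = 0.0402).

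Probe sets that were not used for the calls mostly had the same sign. A further 34 probe sets of 19 members lay above the array median on all arrays, and 30 of them had the sign of the chosen probe set in control glands between weeks 8 and 16. The exceptions belonged to Ndufv1, Ndufa10 and Ndufs4. For Ndufs4 one further probe set was at 0.04 and another at -0.88. The probe sets shared by Ndufb4, Ndufb4b and Ndufb4c were at -0.60 and -0.71, that of Ndufs6 and Ndufs6b at -0.47, and the brighter of those of Ndufa11 and Ndufa11b at -0.39. Near-identical copies share these last probe sets, so their values cannot be given to 1 gene.

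Promoter windows of 300 bases, from 250 before to 50 after the start of the gene, were taken from RefSeq (GRCm38.p6) for 32 of the 36 members, of which Ndufa5 and Ndufa7 had 2 windows each. Those of 4 members are shown because the genes moved together with the others or, for Ndufa10, against them, and because each holds a motif searched for. The capitals mark TGACGTCA, the cyclic AMP response element, in Ndufb2 and Ndufa10, and AAGATGGCG, bound by YY1, in Ndufs4 and Ndufc1.
Ndufb2 (chr6:39592315-39592614, forward strand): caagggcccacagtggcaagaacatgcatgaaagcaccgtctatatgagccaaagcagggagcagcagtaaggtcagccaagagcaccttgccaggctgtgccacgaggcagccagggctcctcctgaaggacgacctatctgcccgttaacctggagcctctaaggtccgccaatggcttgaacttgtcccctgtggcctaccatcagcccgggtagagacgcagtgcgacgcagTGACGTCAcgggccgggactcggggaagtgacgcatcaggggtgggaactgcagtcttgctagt
Ndufa10 (chr1:92473709-92474008, reverse strand): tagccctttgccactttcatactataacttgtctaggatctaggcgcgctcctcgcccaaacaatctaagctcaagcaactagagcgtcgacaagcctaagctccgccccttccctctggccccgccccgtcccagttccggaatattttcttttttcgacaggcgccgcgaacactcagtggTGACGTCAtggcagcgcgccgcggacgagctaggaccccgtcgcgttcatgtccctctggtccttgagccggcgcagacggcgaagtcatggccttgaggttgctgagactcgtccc
Ndufs4 (chr13:114388045-114388344, reverse strand): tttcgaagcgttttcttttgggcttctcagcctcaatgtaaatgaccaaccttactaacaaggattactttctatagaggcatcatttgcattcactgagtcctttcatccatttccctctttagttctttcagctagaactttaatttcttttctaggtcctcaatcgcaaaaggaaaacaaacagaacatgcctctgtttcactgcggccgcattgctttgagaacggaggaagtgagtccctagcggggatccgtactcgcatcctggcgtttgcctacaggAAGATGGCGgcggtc
Ndufc1 (chr3:51408906-51409205, reverse strand): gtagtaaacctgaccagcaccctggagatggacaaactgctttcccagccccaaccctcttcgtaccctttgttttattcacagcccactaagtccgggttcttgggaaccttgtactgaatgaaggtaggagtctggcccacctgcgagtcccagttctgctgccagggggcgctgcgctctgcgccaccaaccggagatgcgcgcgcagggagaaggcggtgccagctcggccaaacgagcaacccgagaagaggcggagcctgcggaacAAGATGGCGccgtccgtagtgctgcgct

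Motifs were searched on both strands. The members' windows had a median GC content of 59.3%, against 52.7% for all genes, and the motif shares are not adjusted for it. AAGATGGCG was present in 4 of the 32 genes (12.5%), those of Ndufa9, Ndufc1, Ndufs4 and Ndufs7, and in 1.64% of 27025 genes. In these 4 windows it began 23 to 36 bases after the start site. TGACGTCA was present in Ndufb2 and Ndufa10, which makes 6.25% of the members against 2.03% of all genes. The NRF1 motif TGCGCATGC was present in Ndufa6 and Ndufa8 (6.25% against 1.72%), the ETS family motif CCGGAAGT in Ndufs3 (3.12% against 4.31%) and the ERR motif TCAAGGTCA in 0 members (0.466% of all genes). Genes with the same motif were not all called alike: of those with TGACGTCA, Ndufb2 fell and Ndufa10 rose, and of those with AAGATGGCG, Ndufs4 and Ndufc1 fell, while Ndufs7 (-0.04) and Ndufa9 (-0.02) did not pass.

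The same comparison in anti-CD40L treated glands takes its group means from other arrays. The spread of each gene was estimated over all 30 arrays, so the arms share it. After anti-CD40L 13 of 35 members (37.1%) were lower at week 16 than at week 8 and 0 were higher, against 12.5% and 24.1% of all genes tested. The median difference was -0.16 over the members and 0.09 over all genes. By the limma fit 15 of 35 members and 6310 of all 12999 genes had an unadjusted p under 0.05. All 13 members called lower were also called lower in controls, where they made up 59.1% of the 22. The overlap of lower calls and of signs between the arms was not counted over all genes. For 35 of 35 members the difference had the same sign in both arms, and Pearson's r over the members was 0.844, against 0.711 over all 12999 genes; the members share libraries within each arm.

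By role, 5 of 8 accessory subunits of the matrix arm, 7 of 18 of the membrane arm, 0 of 6 core subunits and 1 of 2 related genes were called lower after anti-CD40L. The matrix arm genes were the same 5 as in controls. Ndufs4 read 11.29, 11.10, 11.58, 11.12 and 11.11 at week 8 and 10.63, 10.82, 10.77, 10.77 and 10.93 at week 16, without overlap, and fell by 0.46 on the log2 scale (SE 0.11, adjusted p = 0.00381). Ndufa5 read 10.79, 10.58, 10.98, 10.61 and 10.70 and then 10.33, 10.39, 10.44, 10.46 and 10.50, a difference of -0.31 ± 0.10 (adjusted p = 0.0186), also without overlap.

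Ndufa2 read 11.60, 11.22, 11.57, 11.24 and 11.23 at week 8 and 10.99, 10.99, 11.03, 11.26 and 11.23 at week 16, a difference of -0.27 ± 0.10 (adjusted p = 0.0305). Ndufb2 read 11.74, 11.38, 11.79, 11.33 and 11.28 and then 11.05, 11.08, 11.15, 11.15 and 11.28, a difference of -0.36 ± 0.13 (adjusted p = 0.0311). Both overlapped between the ages, and in both genes replicates 1 and 3 of week 8 stood above the other 3 arrays of that group. Each call was lost on leaving out any of 5 of the 10 arrays.

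Ndufa6 read 12.20, 12.04, 12.26, 12.04 and 12.03 and then 11.72, 11.75, 11.80, 11.74 and 11.76, a difference of -0.36 ± 0.08 (adjusted p = 0.00147). Ndufb3 read 11.45, 11.27, 11.46, 11.14 and 11.19 and then 10.77, 10.95, 11.01, 10.90 and 10.99 (-0.38 ± 0.08, adjusted p = 0.00178), and Ndufc1 12.31, 12.08, 12.26, 11.94 and 11.94 and then 11.77, 11.79, 11.77, 11.73 and 11.85 (-0.33 ± 0.08, adjusted p = 0.00384). The ages stayed apart in these 3 genes, whose calls held on leaving out any 1 of the 10 arrays. Ndufa4l2 fell by 0.44 and Ndufa7 by 0.38 on the log2 scale, and Ndufa10 had a difference of 0.15 ± 0.12 (adjusted p = 0.313). The member count depended on single arrays: it was 7 without replicate 1 of the anti-CD40L week 8 group, 6 without its replicate 3, and 8 without replicate 1 of the week 16 group. Calls among all genes were then 3137, 3267 and 4294, against 4751 with every array. With the 3' minus 5' difference as a covariate 6 members were lower (Ndufs4, Ndufa6, Ndufa7, Ndufb3, Ndufc1 and Ndufa4l2). Without the 5 arrays above 0.5 in that quantity, 1 of them in the anti-CD40L week 8 group, 11 members were lower. With the covariate all genes had 3386 calls. Quantile normalization gave 21 lower members and moved the share of higher calls among all called genes from 65.8% to 39%.

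**Figure D3:**
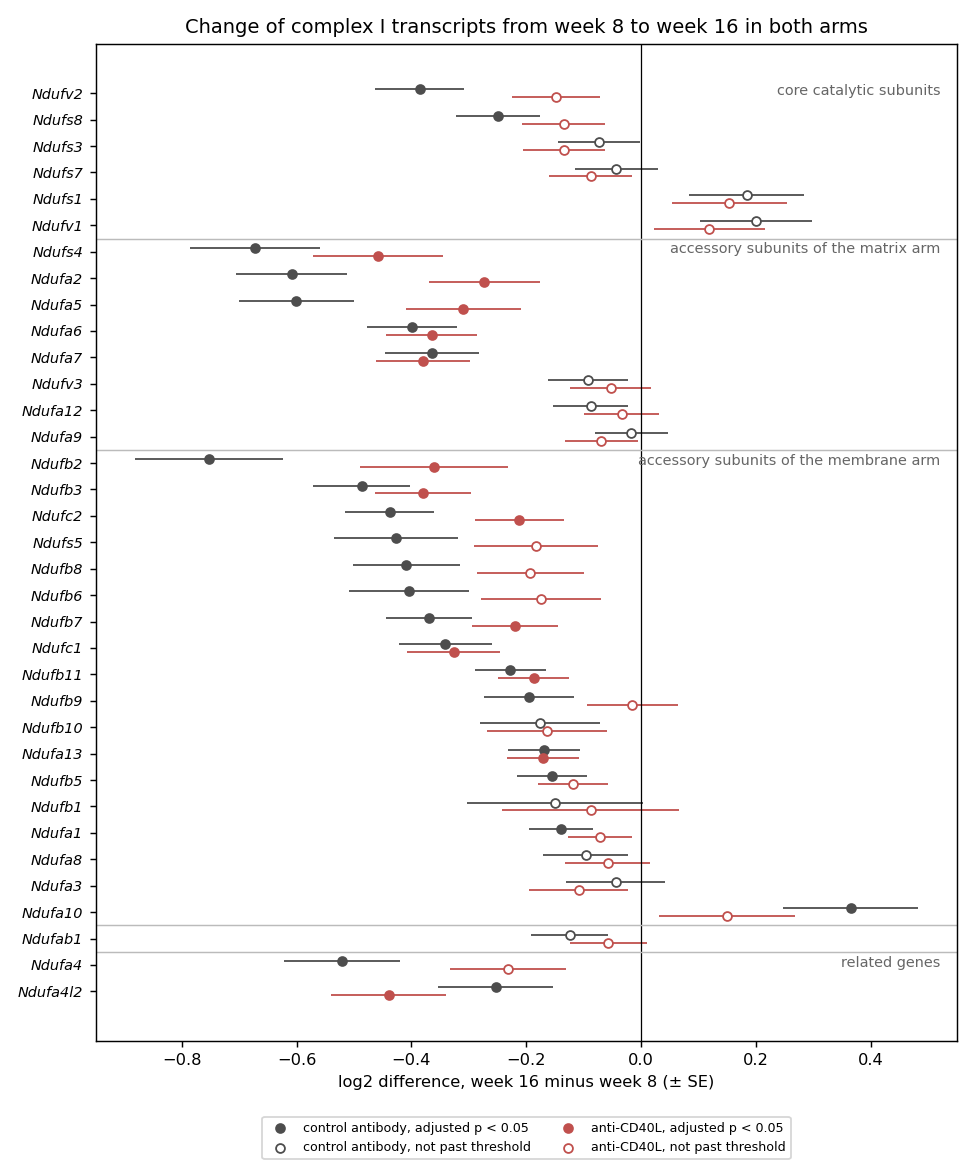
Log2 difference of each of the 35 complex I genes between week 16 and week 8, with its SE, in control glands (grey) and anti-CD40L treated glands (red), grouped by role. Filled points passed adjusted p under 0.05. In each arm 32 of 35 genes lie below 0, against 45% of all genes in controls and 42.2% after anti-CD40L. The genes above 0 are the same in both arms: Ndufs1, Ndufv1 and Ndufa10.

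Whether the change with age differed between the arms was tested as an interaction. From week 8 to week 16 it differed in 0 of 35 members and in 0.146% of all genes tested (limma, smallest adjusted p of a member 0.278). In that fit 5 of 35 members and 1771 of all 12999 genes had an unadjusted p under 0.05. The member median of this interaction was 0.05. The member with the largest value was Ndufb2, at 0.39 (SE 0.18, adjusted p = 0.339). From week 8 to week 24 it differed in 0 members and in 0.00769% of all genes. For that interaction 0 members and 759 of all genes had an unadjusted p under 0.05 (limma).

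At week 24 fewer members passed the test against week 8 than at week 16, and weeks 16 and 24 were not tested against each other. In each arm 29 of 35 members lay below 0, against 42.7% of all genes in controls and 39.3% after anti-CD40L. In controls 7 of 35 (20%) were lower and 0 higher, against 4.01% and 8.49% of all genes, with a median of -0.13 (all genes 0.05). They were Ndufa5 (-0.42 ± 0.10), Ndufa2 (-0.39 ± 0.10), Ndufs4 (-0.36 ± 0.11), Ndufs5 (-0.33 ± 0.11), Ndufb3 (-0.32 ± 0.08), Ndufa4 (-0.32 ± 0.10) and Ndufc1 (-0.25 ± 0.08). Of these, Ndufa2 and Ndufb3 did not overlap between the ages, and the calls of Ndufa2, Ndufa5 and Ndufb3 held without any 1 of the 10 arrays. The number of lower members was 3 without replicate 4 of week 8 or without replicate 2, 4 or 5 of week 24, 4 without replicate 3 of week 8, 11 without replicate 1 of week 8 and 13 without replicate 1 of week 24. Calls among all genes ranged from 721 to 3230 when 1 array was left out, against 1624. Quantile normalization moved the share of higher calls among all called genes from 67.9% to 46.7% and gave 9 lower members. With the 3' minus 5' covariate 1 member, Ndufv3, was lower. Without the 5 arrays above 0.5 in that quantity, 3 of them week 8 controls and 1 a week 24 control, 1 was lower. With that covariate all genes had 715 calls. In a fit on only the 10 arrays compared none of the 7 passed (0 members, and 41 of all genes against 1624), and with a replicate block 4 members were lower.

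In anti-CD40L treated glands 9 of 35 members (25.7%) were lower at week 24 than at week 8 and 0 were higher, against 7.12% and 16.5% of all genes, with a median of -0.15 (all genes 0.09). Ndufs4 had the largest difference, -0.41 ± 0.11 (adjusted p = 0.0126), and read 10.88, 10.72, 10.81, 10.91 and 10.81 at week 24. The others were Ndufc1 (-0.38 ± 0.08), Ndufb2 (-0.36 ± 0.13), Ndufa2 (-0.35 ± 0.10), Ndufa4 (-0.35 ± 0.10), Ndufa5 (-0.34 ± 0.10), Ndufa6 (-0.33 ± 0.08), Ndufs5 (-0.32 ± 0.11) and Ndufc2 (-0.25 ± 0.08). In each of the 9 the ages did not overlap, a property read from the same values as the calls and not counted over all genes. The 3' minus 5' difference also fell between these ages (exact permutation test, adjusted p = 0.0371), and with it as a covariate 1 member, Ndufc1, was lower. With that covariate the calls among all genes went from 3074 to 633. Without replicate 3 of week 8, 3 members and 1516 of all genes were called. With quantile normalization 14 members were, and the share of higher calls among all called genes went from 69.9% to 42.8%. The 2 arms shared 6 lower members at week 24, which are 85.7% of the 7 in controls and 66.7% of the 9 after anti-CD40L. The same overlap was not counted over all genes, whose differences in the arms had a Pearson's r of 0.701.

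The mean over the 35 members gives the same course on one scale. In controls it was 11.49 ± 0.0601 at week 8, 11.24 ± 0.0484 at week 16 and 11.35 ± 0.097 at week 24 (SD over arrays, n = 5). After anti-CD40L it was 11.42 ± 0.0913, 11.25 ± 0.0508 and 11.28 ± 0.0222. At week 16 every array of both arms lay below every week 8 array of its arm, and at week 24 the controls ranged from 11.19 to 11.44.

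The anti-CD40L antibody itself was followed by few differences in complex I genes. At week 8, 0 of 35 members and 0.0692% of all genes differed from control (limma, smallest adjusted p of a member 0.203), with 9 members and 2020 of all genes at an unadjusted p under 0.05. Of the 35 differences 26 were below 0, against 48.9% of those of all genes, and the median was -0.045 against 0.005 over all genes. The largest were Ndufb2 (-0.32 ± 0.13), Ndufa5 (-0.29 ± 0.10), Ndufa10 (0.27 ± 0.12), Ndufa4 (-0.27 ± 0.10), Ndufa2 (-0.25 ± 0.10) and Ndufv2 (-0.25 ± 0.08), and in each of these the arrays of the groups overlapped.

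At week 16 the member differences lay between -0.19 and 0.13. Again 0 of 35 members passed, against 1.88% of all genes (limma, smallest adjusted p of a member 0.302), and the median was 0.02. In the same fit 1 member and 1910 of all 12999 genes had an unadjusted p under 0.05. Array weights gave 2 member calls, and took the calls among all genes from 245 to 1557. The largest differences were Ndufa4l2 (-0.19 ± 0.10), Ndufa7 (-0.18 ± 0.08) and Ndufv3 (0.13 ± 0.07). Ndufa7 read 11.65, 11.66, 11.72, 11.64 and 11.60 in controls and 11.46, 11.56, 11.47, 11.45 and 11.45 after anti-CD40L, and Ndufa4l2 read 6.43, 6.64, 6.49, 6.36 and 6.52 and then 6.32, 6.35, 6.31, 6.25 and 6.28. Neither gene overlapped between the treatments, and both were picked for display with their values known. Ndufb2 read 11.00, 11.03, 11.15, 11.12 and 11.06 in controls and 11.05, 11.08, 11.15, 11.15 and 11.28 after anti-CD40L, ranges that overlap.

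At week 24, 3 of 35 members (8.57%) differed between the treatments, close to the 9.45% of all genes. Ndufv2 read 12.29, 12.07, 12.10, 11.84 and 11.99 in controls and 11.76, 11.80, 11.81, 11.87 and 11.80 after anti-CD40L, and was lower by 0.25 ± 0.08 on the log2 scale (adjusted p = 0.0415), with overlap. Ndufc2 read 12.89, 12.48, 12.59, 12.44 and 12.54 in controls and 12.27, 12.40, 12.37, 12.28 and 12.39 after anti-CD40L, without overlap (-0.24 ± 0.08, adjusted p = 0.0465). Ndufa10 was higher after anti-CD40L (0.36 ± 0.12, adjusted p = 0.0493), with 10.36, 11.10, 10.98, 10.89 and 10.93 in controls and 11.23, 11.15, 11.17, 11.37 and 11.15 after the antibody, also without overlap.

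Over all 35 members at week 24, these 3 included, 15 differences lay above 0 and 20 below 0, while 45.8% of all genes lay below 0. The median was -0.10, against 0.03 over all genes. By the limma fit 16 members and 3854 of all 12999 genes had an unadjusted p under 0.05. Ndufb2 (-0.34 ± 0.13, adjusted p = 0.0842), Ndufa4 (-0.30 ± 0.10, adjusted p = 0.0541) and Ndufs4 (-0.30 ± 0.11, adjusted p = 0.0846) did not pass. The 3' minus 5' difference was lower after anti-CD40L at this age (exact permutation test, adjusted p = 0.0371), and with it as a covariate 0 members were called and the median was -0.03. With that covariate the calls among all genes went from 1229 to 23. The 3 member calls also depended on single arrays. Their number was 0 without control replicate 1 or 3 or without anti-CD40L replicate 1, 3, 4 or 5, 1 without control replicate 5 or anti-CD40L replicate 2, 5 without control replicate 2 and 11 without control replicate 4. Calls among all genes ranged from 237 to 2140 over these fits. Quantile normalization gave 5 member calls and moved the share of higher calls among all called genes from 63.1% to 48.3%.

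**Figure D4:**
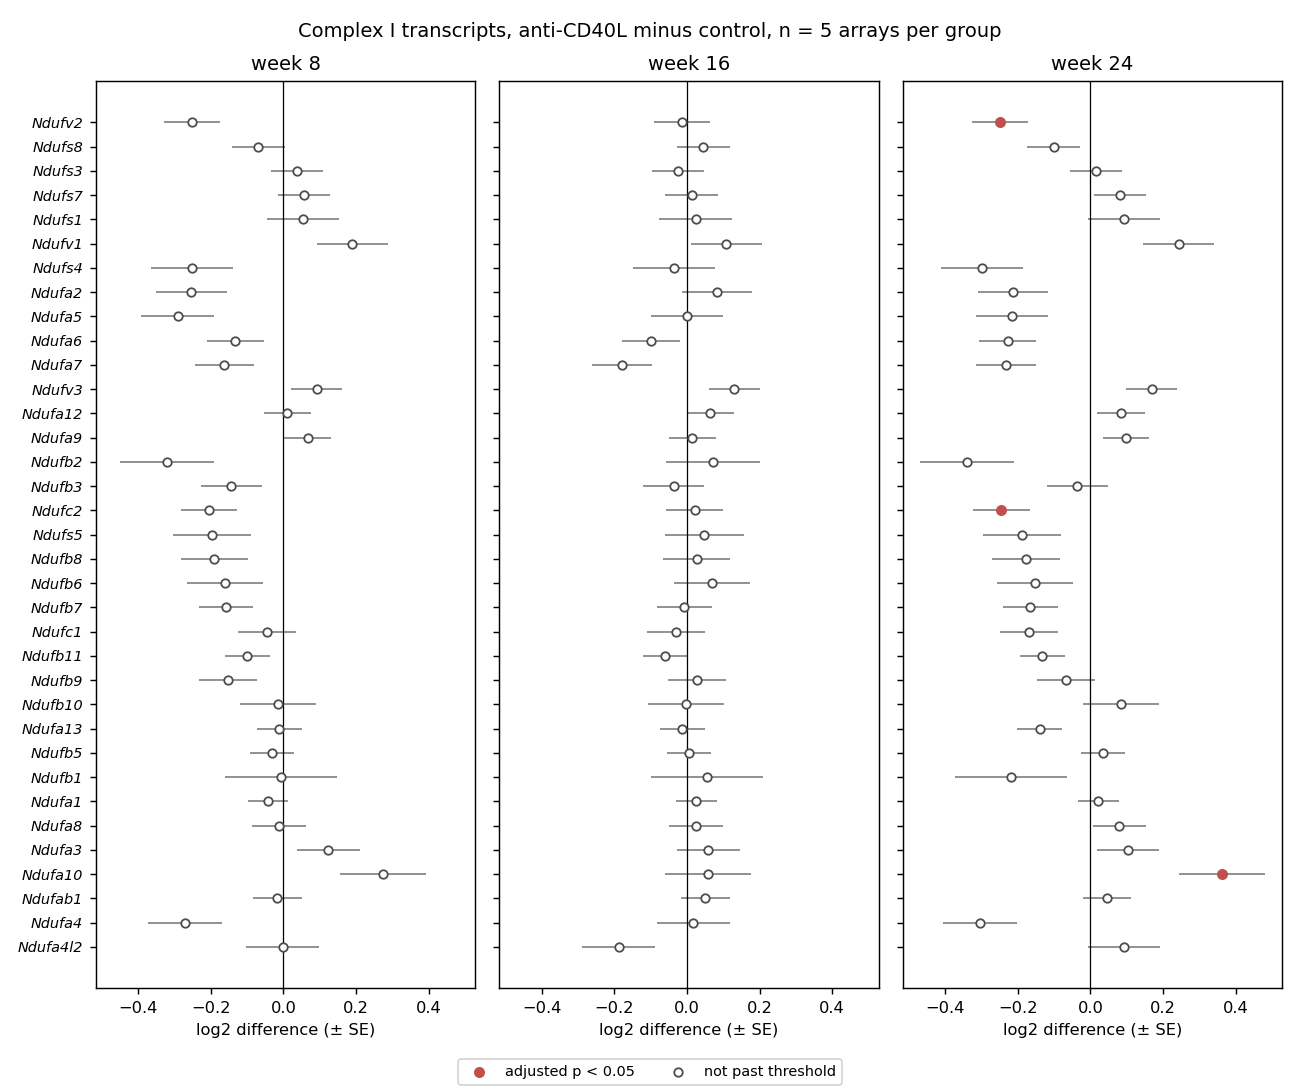
Log2 difference between anti-CD40L treated and control glands for the 35 complex I genes at weeks 8, 16 and 24, with its SE (n = 5 arrays per group). Filled red points passed adjusted p under 0.05: none at weeks 8 and 16, and Ndufv2, Ndufc2 and Ndufa10 at week 24.

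Other genes of oxidative phosphorylation had list medians nearer to 0 between weeks 8 and 16 in controls, a comparison in which 18.1% of all genes tested were lower and 28.4% higher. For complex II 1 of 4 genes was higher (Sdha, 0.50 ± 0.14) and 0 were lower. Complex III had 4 lower and 1 higher of 9, with a median of -0.09; its small subunit Uqcr11 fell by 0.57 and its core subunit Uqcrc1 rose by 0.25 on the log2 scale. Complex IV had 4 lower and 0 higher of 15, with a median of -0.10. ATP synthase had 7 lower and 2 higher of 15, with a median of -0.16. The 2 that rose were the catalytic core genes Atp5b (0.40 ± 0.09) and Atp5a1 (0.32 ± 0.08), while the small subunit gene Atp5e fell by 0.66. The assembly factors of complex I had 4 lower and 0 higher of 15, with a median of -0.14, and Ndufaf8 fell by 0.75.

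Genes that feed or regulate the chain had list medians above 0 in the same comparison. All genes together also had more calls higher (28.4%) than lower (18.1%), a balance that quantile normalization turned to 42% higher among those called. Of 13 genes of the citrate cycle and pyruvate dehydrogenase 6 were higher and 0 lower, with a median of 0.21, and Ogdh, a subunit of the 2-oxoglutarate dehydrogenase complex, rose by 1.36 ± 0.31. Of 12 regulators of mitochondrial biogenesis 7 were higher and 1 lower, with a median of 0.42. Among them were the coactivators Pprc1 (1.31 ± 0.21), Ppargc1b (1.02 ± 0.22) and Ppargc1a (0.93 ± 0.25), while Tfb1m, a methyltransferase of the mitochondrial ribosome, fell by 0.51.

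After anti-CD40L, where 24.1% of all genes were higher and 12.5% lower, these lists had medians nearer to 0 between weeks 8 and 16, except that the assembly factors were at 0.14, with 2 higher and 3 lower. The citrate cycle list had 4 higher and 0 lower and the regulators 6 higher and 1 lower, with medians of 0.12 and 0.31. ATP synthase had 2 higher and 2 lower, complex IV 0 and 3, complex III 0 and 2, and complex II 0 and 0. The part of RNA quality in the changes of these lists was not tested. At week 24 the treatment comparison had 3 regulators higher and 1 lower, and Ppargc1a was higher after anti-CD40L by 1.48 ± 0.25 (limma, adjusted p = 0.0015).

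**Figure D5:**
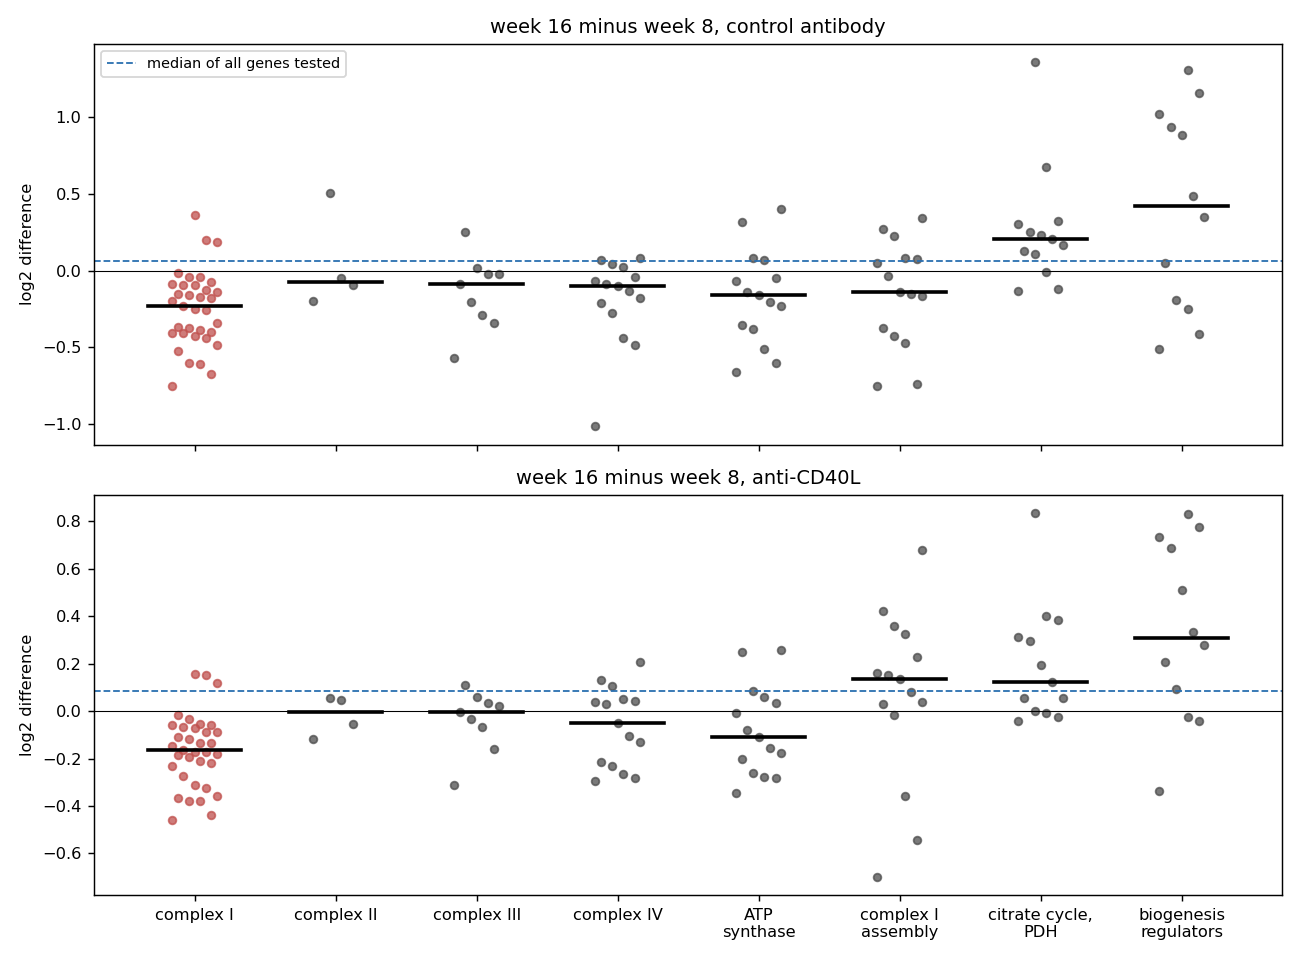
Log2 difference between week 16 and week 8 of every tested gene of complex I (red) and of 7 related lists (grey), in control glands (upper panel) and anti-CD40L treated glands (lower panel). Black bars are list medians and the dashed line is the median of all genes tested; complex I has its median at -0.23 and -0.16, below the dashed line in both panels.

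The cell makeup of the samples also differed, and its part in the complex I values was not tested beyond the Amy1 covariate. The mean of 4 granular and striated duct markers rose from 11.48 (range 11.33 to 11.61) in week 8 controls to 11.77 (11.67 to 11.81) in week 16 controls, and that of 5 ionocyte markers from 8.20 (7.60 to 8.57) to 8.90 (8.76 to 9.12), in both cases without overlap. The mean of 4 acinar markers was 12.01 (11.70 to 12.21) and 12.36 (12.24 to 12.42), also without overlap. After anti-CD40L all of these means overlapped between the same ages. The duct markers ranged from 11.28 to 11.62 at week 8 and from 11.38 to 11.80 at week 16. The ionocyte markers ranged from 7.77 to 8.65 and from 8.55 to 8.84, and the acinar markers from 12.06 to 12.35 and from 12.22 to 12.35. At week 24 the controls had a mean of 3 B cell markers of 7.74 (6.41 to 8.81), against 5.18 (4.97 to 5.59) after anti-CD40L. The 9 skeletal muscle markers on the array, 6 of them above the filter, averaged 6.01 (5.49 to 7.01) in week 24 controls and 5.22 to 5.45 in the other groups. Amy1, a parotid product, ranged from 6.58 to 13.61 among week 8 controls, and between weeks 8 and 16 its difference was -3.56 after anti-CD40L (exact permutation test, adjusted p = 0.0371). With Amy1 as a covariate, 8 members were lower after anti-CD40L in that comparison, and the calls among all genes went from 4751 to 2658.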

How the data were processed

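Total RNA of whole salivary gland from mice was hybridised to 30 Affymetrix arrays. The deposited table holds 45101 probe sets; from the span of its values, 2.757 to 14.457, these were taken to be log2 intensities, and the authors' normalization and summarisation are not given in the sources used here. The submitters' processing notes name limma. No further scaling was applied. Array medians lay between 5.487 and 5.537, and no pair of arrays was a duplicate (highest correlation 0.9938). The number of arrays, 5 per group, limits the precision.

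A gene was represented by its brightest probe set among the 34958 naming exactly 1 gene in the platform annotation (932 named several), and tested when it lay above the array median in at least 5 arrays. The 6 group means were fitted over all 30 arrays with limma 3.58.1 (R 4.3.3), 9 contrasts were taken, and p values were adjusted over the 12999 genes by the Benjamini-Hochberg method. The script was tested on simulated data. Errors beside differences are standard errors.

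The members, the lists and the tests were chosen with earlier results of these data known. Named in each comparison were members past the threshold, up to the 10 with the largest difference, or the largest up to 6 where fewer passed; core subunits were described throughout. Per-array values were given for the 10 members named most often. Ndufa10 and Ndufv2, the remaining members of each role, and the genes named from the other lists were chosen after their values were seen. Replicate numbers were not treated as pairs in the main fit. Deviations of same-numbered arrays correlated above 0.1 in at most 2 of 5 pairs in any comparison, with a highest r of 0.401. So few pairs cannot exclude a shared block.

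The alternatives tried were quantile normalization, centring on the array median, no filter, the median over probe sets, array weights, a fit on only the arrays compared, a replicate block, the 3' minus 5' difference or Amy1 as a covariate, and leaving out each array. Promoter windows came from RefSeq.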

Additional observations from a re-analysis of the deposited data

Results flagged for a closer look

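In 2 of 66 groups checked, 1 array stood apart from the other 4 by Dixon's criterion (a gap above 0.71 of the range of the group), which chance alone gives in about 1 group in 20. Ndufa4 read 12.836 in replicate 1 of the week 24 controls, where the other 4 arrays read 12.178 to 12.368. That array also had the highest 3' minus 5' difference of its group, 0.61; its part in the value was not tested. Ndufc1 read 11.852 in replicate 2 of the week 24 anti-CD40L group, where the others read 11.677 to 11.724.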

How the results depend on the processing

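The member medians kept their sign in the age comparisons under every alternative run. Of the 55 calls of members over all comparisons, 1 changed sign under an alternative: Ndufa10 between weeks 8 and 16 in controls, at 0.365, was at -0.04 with the 3' minus 5' covariate. Its uncalled treatment difference at week 8 also changed sign with that covariate, to -0.015. The number of members called was less stable. Between weeks 8 and 16 in controls the 23 member calls became 4 with the 3' minus 5' covariate and were 17 to 22 when 1 array was left out. The 6047 calls among all genes became 620 and were 4446 to 6782. After anti-CD40L the 13 member calls became 21 with quantile normalization, 6 with the 3' minus 5' covariate and 8 with Amy1 as a covariate, and were 6 to 13 when 1 array was left out. The 4751 calls among all genes became 4394, 3386 and 2658 in that order, and were 3137 to 5298. From week 8 to week 24 the 7 control calls of members became 0 in the fit on only the arrays compared, 1 with the 3' minus 5' covariate, 4 with Amy1, 1 without the 5 arrays above 0.5 in the 3' minus 5' difference (chosen after the data were seen) and 3 to 13 when 1 array was left out. The 1624 calls among all genes became 41 in the fit on only the arrays compared, 715 with the 3' minus 5' covariate and 1430 with Amy1. The 9 member calls after anti-CD40L became 14 with quantile normalization, 1 and 4 with the covariates and 3 to 13 when 1 array was left out. There the 3074 calls among all genes became 2897 with quantile normalization and 633 and 1412 with the covariates. At week 24 the 3 treatment calls of members became 5 with quantile normalization or array weights, 1 after centring, with the median over probe sets or without the 5 arrays, 6 with Amy1, 0 without the filter, in the fit on only the arrays compared or with the 3' minus 5' covariate (median -0.032), and 0 to 11 when 1 array was left out. The 1229 calls among all genes became 1304 with quantile normalization, 1624 with array weights, 1888 with Amy1 and 23 with the 3' minus 5' covariate. They became 1228 after centring, 1009 with the median over probe sets, 1038 without the filter and 129 in the fit on only the arrays compared. At week 16 array weights gave 2 treatment calls of members, while the calls among all genes went from 245 to 1557. Without the 5 arrays the median of the interaction to week 24 was 0.089. With a replicate block, the 7 control calls of members at week 24 became 4 and the 3 treatment calls became 0. Calls among all genes went from 1624 to 1433 and from 1229 to 1137. The causes of these shifts were not tested.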
